A study of Mus musculus with 7 samples.

Results

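Zfp is the mouse prefix for genes named only as zinc finger proteins, and the genes described here are those whose symbol is Zfp followed by digits alone. Of 363 such genes in the count tables, 289 reached 0.5 CPM (the count scaled to a library total of 1000000) in at least 3 of 7 RNA-seq libraries and were tested among 12303 genes of all kinds. The other 74 were too low to test, and 28 of them had no count in any library. The lowest member by its third-highest library was Zfp966 at 0.532 CPM, and the highest gene left out was Zfp964 at 0.482 CPM. A total of 251 members reached 0.5 CPM in all 7 libraries, 1 member, Zfp982, reached it in no wild-type library, and 2, Zfp229 and Zfp551, reached it in no Smchd1 null library. Those 3 passed through the group where they are higher, so that a difference was needed for them to be tested.

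The libraries came from cell lines grown out of end-stage lymphomas of male C57BL/6 mice. All carried the Eµ-Myc transgene, in which an immunoglobulin enhancer drives Myc in the B lineage. The labels give 3 replicates with wild-type Smchd1 and 4 from homozygotes for a gene trap in Smchd1, called Smchd1 null, and each replicate is referred to as a line here. The paper instead writes the mutant genotype as Smchd1MD1/MD1 and mentions no gene trap, so the allele is uncertain here. Smchd1 encodes a chromatin protein of the structural maintenance of chromosomes family that takes part in gene silencing. A line grown from a tumour carries whatever changes that tumour acquired. It was not stated whether replicates came from separate animals or cultures, so p-values measure only the spread between these libraries. Wild-type replicate 1 was the only library of batch 1 and was read single-end, whereas the other 6 were read paired-end in batch 2.

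Most Zfp genes encode proteins with arrays of C2H2 fingers, each of which folds around a zinc ion and reads a few bases of DNA. Many also carry a KRAB domain, which binds the corepressor Trim28 and through it brings the methyltransferase Setdb1 and HP1 proteins that build repressive chromatin. KRAB zinc finger genes arose largely by tandem duplication, so they lie in clusters, and many of them silence transposable elements.

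Library quality bears on every result below. Total counts ranged from 3626853 to 7519549, so that 3 counts corresponded to 0.399 to 0.827 CPM. Smchd1 itself was at 218.7 to 248.1 CPM in wild-type lines and at 22.7 to 28.7 CPM in Smchd1 null lines (exact two-sided permutation p = 0.0286, the smallest that 35 splits allow). Wild-type replicates 2 and 3 lay at a leading log2 fold change distance of 1.88 from each other, against 3.99 to 6.52 for every other pair. Their sample weights were 3.78 and 3.06. The smallest weights, 0.246 and 0.249, belonged to replicate 1 of the wild-type group and replicate 4 of the null group. Marker genes of the B lineage summed to 2839 to 4561 CPM in every library, and T cell and erythroid markers to at most 0.532 CPM. Myeloid markers summed to 0.296 to 26.2 CPM and endothelial markers to 47.7 to 220.4 CPM, highest in Smchd1 null replicate 4. The endothelial sum was almost all Pecam1 (44.1 to 219 CPM), with Cdh5 at 1.3 to 3.6 CPM and Kdr at 0 in every library. Fibroblast markers reached 10.2 CPM in wild-type replicate 1 and at most 0.266 CPM elsewhere. In such bulk samples, fewer cells of a type and less RNA per cell cannot be told apart.

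The Zfp genes as a group stood at nearly the same level in both groups of lines. Their median log2 fold change (Smchd1 null minus wild-type) was 0.0032, with an interquartile range from -0.29 to 0.21, beside -0.0058 over all genes tested. A total of 145 members had a positive and 144 a negative value. With limma voom and sample weights, 12 members (4.15%) were called higher and 13 (4.50%) lower in Smchd1 null lines at an adjusted p under 0.05. Among all genes tested the shares called were 5.06% higher and 6.85% lower, or 11.9% in either direction, against 8.65% of the Zfp members. The member shares thus lay below the background in both directions.

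Overlap between the groups was counted as well. The 3 wild-type and 4 Smchd1 null values did not overlap for 12 members higher and 22 members lower (4.15% and 7.61%), beside 6.35% and 6.85% of all genes. Both called and without overlap were 4 members higher, against a background of 2.61%, and 7 lower, against 3.55%. Zfp551 is among the 7 and the 22, and Zfp229 among the 22. Both passed the filter in wild-type lines alone, so their groups could not overlap. The calls depended on which libraries entered the fit. With wild-type replicates 2 and 3 summed into 1 sample, no member was called and 15 had an unadjusted p under 0.05. Leaving out either of them also gave no call, with 10 members each at an unadjusted p under 0.05. Without Smchd1 null replicate 1 there were 3 higher and 1 lower, and without Smchd1 null replicate 2 there was 1 higher and 0 lower. DESeq2 called 0 members higher and 3 lower, Zfp260, Zfp551 and Zfp687, beside 1.56% and 1.54% of all genes. Voom alone and the edgeR quasi-likelihood test called none, with 32 and 26 members at an unadjusted p under 0.05.

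**Figure D1:**
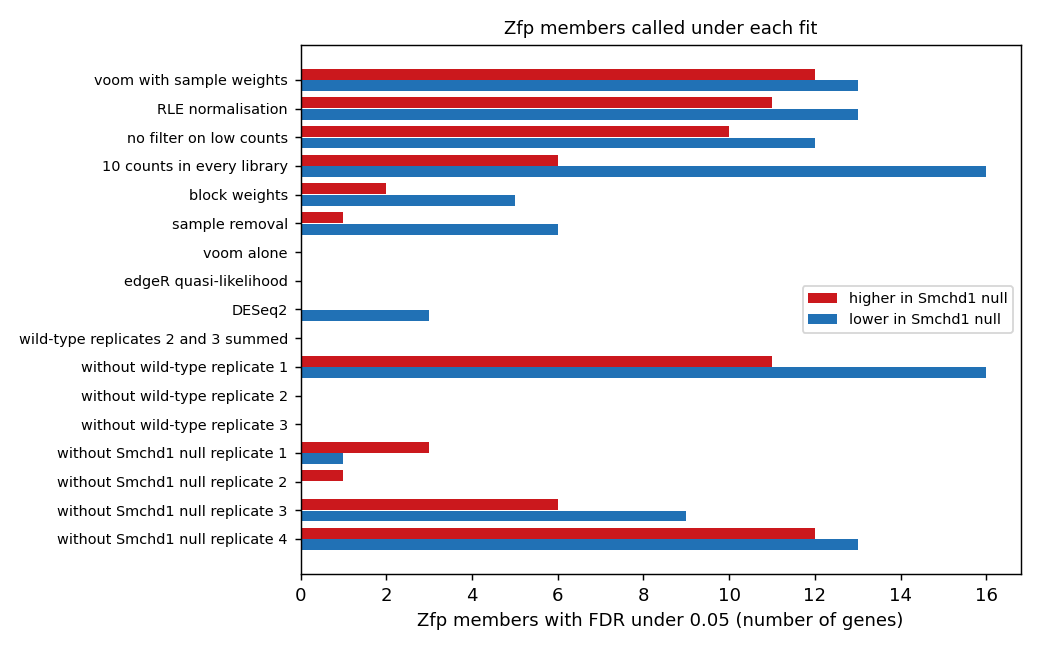
Number of Zfp members with an adjusted p under 0.05 (x axis, genes) under each fit (y axis), split into higher (red) and lower (blue) in Smchd1 null lines. The 12 higher and 13 lower calls of voom with sample weights fall to 0 without wild-type replicate 2 or 3, and to 0 higher and 3 lower in DESeq2.

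Among members that were lower without overlap, Zfp551 and Zfp687 were the ones called by both limma and DESeq2 with the largest falls. The promoters of both genes are shown because these are the steepest of those decreases, and that of Zfp993 because it belongs to the cluster with the largest increases, described later. Each is the 250 bases before a transcript start in the RefSeq promoter table on GRCm38.p6, with CG dinucleotides in capitals, since cytosines there are the usual target of DNA methylation. The window of Zfp551 (chr7:12422492-12422741, minus strand) holds 13 CG and lies almost wholly inside the annotated gene, before a start internal to it. Zfp687 has 2 such windows, also inside the gene and overlapping each other, at chr3:95015458-95015707 with 10 CG and at chr3:95015239-95015488 with 26 CG (minus strand). The window of Zfp993 (chr4:146512599-146512848, plus strand) ends at the first base before the gene and holds 4 CG.
Zfp551: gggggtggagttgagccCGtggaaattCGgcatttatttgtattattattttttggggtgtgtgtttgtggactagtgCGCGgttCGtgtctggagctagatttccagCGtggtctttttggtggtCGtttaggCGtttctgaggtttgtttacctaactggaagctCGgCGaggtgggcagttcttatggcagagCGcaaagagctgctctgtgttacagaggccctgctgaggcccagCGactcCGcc
Zfp687, first window: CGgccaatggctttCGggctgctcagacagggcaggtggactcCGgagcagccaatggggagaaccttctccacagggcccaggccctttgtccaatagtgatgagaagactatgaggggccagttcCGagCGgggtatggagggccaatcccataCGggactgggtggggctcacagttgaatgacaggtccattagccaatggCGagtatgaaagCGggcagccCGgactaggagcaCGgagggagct
Zfp687, other window: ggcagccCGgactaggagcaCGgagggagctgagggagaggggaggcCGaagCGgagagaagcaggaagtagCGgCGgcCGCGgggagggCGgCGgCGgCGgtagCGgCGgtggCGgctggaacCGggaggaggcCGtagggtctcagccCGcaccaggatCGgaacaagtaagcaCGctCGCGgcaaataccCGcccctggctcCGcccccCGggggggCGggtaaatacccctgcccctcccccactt
Zfp993: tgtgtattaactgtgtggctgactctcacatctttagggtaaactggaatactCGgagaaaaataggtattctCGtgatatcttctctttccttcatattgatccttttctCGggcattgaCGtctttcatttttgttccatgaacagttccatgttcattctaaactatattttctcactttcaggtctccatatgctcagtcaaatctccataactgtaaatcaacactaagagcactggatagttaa

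Counted over 300 bases, from 250 before to 50 after each start, the windows hold 16 CG for Zfp551, 15 and 30 for Zfp687 and 4 for Zfp993. A promoter window was found for 242 members (295 windows), with a median of 15 CG, beside 21 for all genes tested and 7 for every promoter in the table. The E-box CACGTG, the sequence bound by Myc with Max, was searched on both strands and was present in 6.78% of member windows, 10.4% of those of all tested genes and 7.15% of all windows. The ETS-type motif CCGGAAG, also searched on both strands, was in 23.1%, 18.6% and 8.86%, respectively. The motifs do not overlap in their letters and a match does not show binding.

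Zfp551 (chr7:12412549-12422739) had the largest fall of all called members. It stood at 2.48, 2.13 and 3.08 CPM in wild-type replicates 1 to 3. In the 4 Smchd1 null lines it was at 0, 0, 0.154 and 0.266 CPM, which is 3 counts in all against 43 counts in wild-type lines. Every null value lay below the 3-count floor. Zfp551 passed the filter in wild-type lines alone, so its groups could not overlap. The values that follow carry the same limit, since a difference was needed for this gene to be tested. The ratio of wild-type to null rates was 23.4 (95% exact interval 7.48 to 118, counting error only). The fitted log2 fold change was -4.58 ± 0.62 (SE; limma adjusted p = 0.00969, DESeq2 adjusted p = 0.0100), a value that depends on the prior count. Leaving out wild-type replicate 2 or 3, or Smchd1 null replicate 2, ended the limma call. Its translated transcript matched 13 C2H2 fingers and a KRAB pattern. The 10 tested non-zinc-finger genes within 1 Mb had a median log2 fold change of 0.00.

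Zfp687 (chr3:94994674-95015948), whose protein works with the chromatin reader Zmynd8, was at 278 CPM in wild-type replicate 1 and at 90.7 and 84.4 CPM in wild-type replicates 2 and 3. In Smchd1 null lines it was at 32.6, 31.3, 45.1 and 43.2 CPM. All null values were below all wild-type values, and wild-type replicate 1 stood far above the rest. Its log2 fold change was -1.37 ± 0.22 (SE; limma adjusted p = 0.0132, DESeq2 adjusted p = 0.000744). The genes around it moved in the same direction. Over 52 tested neighbours within 1 Mb the median log2 fold change was -0.64, beside -0.44 over 549 other genes of chromosome 3. Of the 52, 9 (17.3%) were called lower and 0 higher, and 14 (26.9%) were lower without overlap, beside 6.85% of all genes for each of the lower counts. In wild-type replicate 1, 38 of the 52 neighbours had their highest value and 34 were over 1 log2 unit above the median of the other libraries. Setdb1, the methyltransferase recruited by KRAB proteins, is one of them, at 1360 CPM in wild-type replicate 1 and 152 to 266 CPM in the other 6 libraries. The part of this neighbourhood in the fall of Zfp687 was not tested. The call held without wild-type replicate 1 (log2 fold change -1.32, limma adjusted p = 0.00489). It was lost without Smchd1 null replicate 1 or 2 (limma adjusted p = 0.0568 and 0.0688) and without wild-type replicate 2 or 3 (log2 fold change -2.08 and -2.13, limma adjusted p = 0.576 and 0.451).

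**Figure D2:**
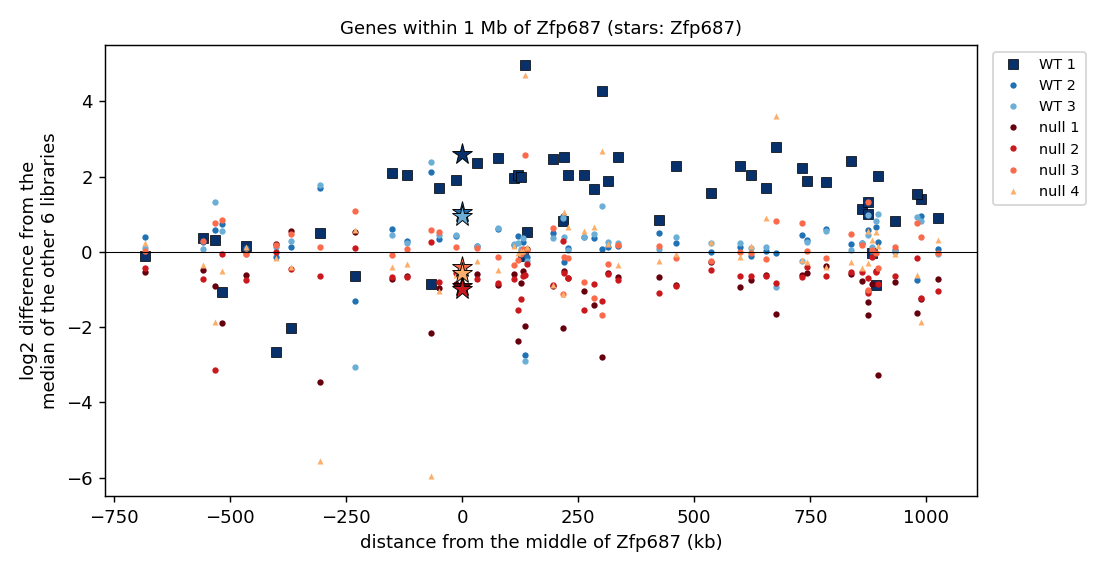
Each point is a tested gene within 1 Mb of Zfp687 in 1 library, placed by distance from Zfp687 (x axis, kb) and by its log2 difference from the median of the other 6 libraries (y axis); stars mark Zfp687. In wild-type replicate 1 (dark squares) 34 of 52 neighbours lie over 1 log2 unit above the other libraries, most of them on the right of the plot.

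The other 5 decreases without overlap were smaller. Zfp52 (chr17:21533725-21563362) had 29.5, 20.7 and 24.0 CPM in wild-type lines and 4.15, 12.8, 14.7 and 8.11 CPM in Smchd1 null lines, a log2 fold change of -1.27 ± 0.33 (SE; limma adjusted p = 0.0453), which was -0.79 and not called without Smchd1 null replicate 1. Of the 7 fits that each left out 1 library, only 1, without Smchd1 null replicate 3, called Zfp52. Zfp358 on chromosome 8 fell from 14.9, 23.3 and 26.4 CPM to 11.4, 13.2, 12.8 and 9.58 CPM (log2 fold change -0.99 ± 0.17, limma adjusted p = 0.0142). The lowest wild-type value of Zfp358 thus lay close to the highest null value. Zfp950 on chromosome 19 fell from 14.9, 16.7 and 21.4 CPM to 8.15, 9.80, 11.3 and 13.3 CPM (log2 fold change -0.93 ± 0.20, limma adjusted p = 0.0279). Zfp267 on chromosome 3 fell from 38.3, 21.3 and 23.9 CPM to 8.74, 14.0, 13.7 and 19.9 CPM (log2 fold change -0.87 ± 0.21, limma adjusted p = 0.0345). The other genes of chromosomes 3 and 19 had median log2 fold changes of -0.44 and -0.56, which rested on particular lines. On chromosome 3 their median difference from the other libraries was -0.48 and -0.51 in Smchd1 null replicates 1 and 2. It was 0.12 and 0.06 in null replicates 3 and 4, and 0.33, 0.18 and 0.15 in wild-type lines. On chromosome 19 it was -0.22 to -0.11 in null lines and -0.10, 0.43 and 0.58 in wild-type replicates 1 to 3. The part of these shifts in Zfp267 and Zfp950 was not tested. Zfp260 on chromosome 7 fell from 67.3, 49.9 and 55.3 CPM to 28.6, 35.02, 41.7 and 38.3 CPM (log2 fold change -0.61 ± 0.13, limma adjusted p = 0.0272, DESeq2 adjusted p = 0.0376). Its 45 tested neighbours had a median log2 fold change of 0.03.

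Increases without overlap were seen for 4 called members, each by less than 1 log2 unit. Zfp593 on chromosome 4, a single-finger protein with a role in ribosome assembly, was at 12.7, 11.5 and 11.1 CPM in wild-type lines and at 25.9, 21.5, 23.9 and 14.9 CPM in Smchd1 null lines (log2 fold change 0.99 ± 0.16, limma adjusted p = 0.0126). Zfp595 on chromosome 13 rose from 7.17, 8.69 and 7.33 CPM to 11.8, 15.4, 15.4 and 11.2 CPM (log2 fold change 0.79 ± 0.18, limma adjusted p = 0.0301). Wild-type values of both genes lay within 2 CPM of each other, whereas the null values spread more widely. Zfp710 on chromosome 7 rose from 39.2, 35.1 and 41.3 CPM to 68.7, 63.3, 46.5 and 52.7 CPM (log2 fold change 0.65 ± 0.14, limma adjusted p = 0.0287). Zfp764, also on chromosome 7, rose from 13.0, 15.4 and 13.9 CPM to 20.9, 22.3, 24.7 and 17.3 CPM (log2 fold change 0.58 ± 0.14, limma adjusted p = 0.0337). None of these 4 was called by DESeq2, whose adjusted p ran from 0.0714 to 0.203.

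**Figure D3:**
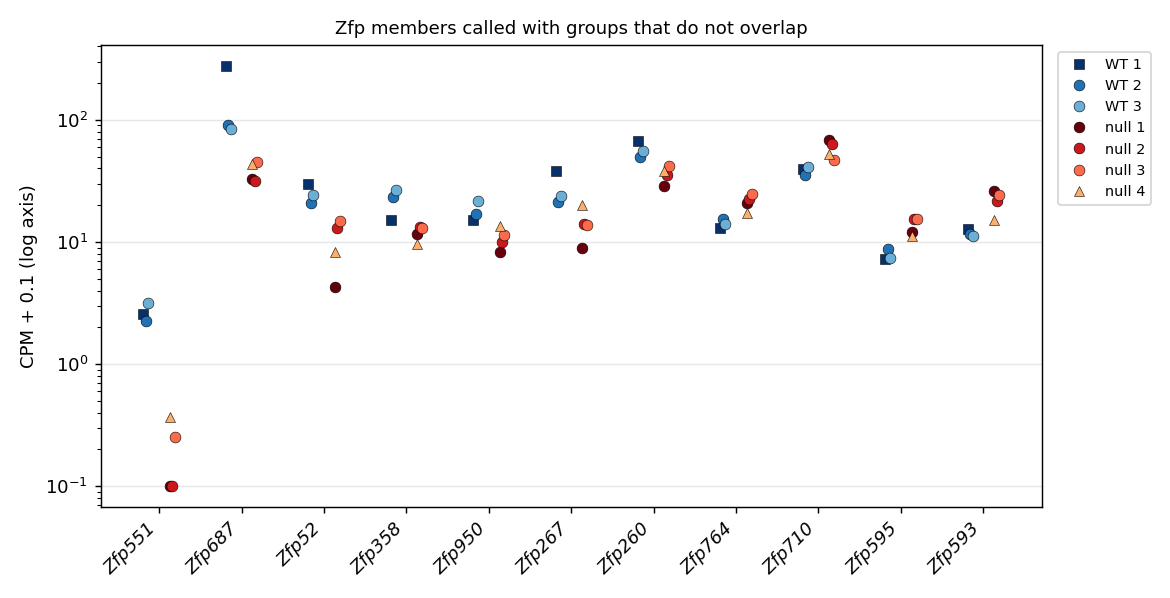
CPM plus 0.1 on a log axis (y) in each of 3 wild-type (blue) and 4 Smchd1 null (red) libraries for the 11 called members whose groups do not overlap (x). Zfp551 shows the widest gap, from 2.13 CPM or more to 0.266 CPM or less, and wild-type replicate 1 of Zfp687 stands apart at 278 CPM. Zfp551 passed the filter in wild-type lines alone, so its groups could not overlap.

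The members with the largest fitted increases did not separate the groups. Zfp992, Zfp991, Zfp939, Zfp202, Zfp993, Zfp78 and Zfp709 had log2 fold changes from 2.11 to 5.86 and limma adjusted p from 0.0134 to 0.0489. In each of them wild-type replicates 2 and 3 were at 0 to 1.31 CPM while wild-type replicate 1, with the lowest weight, was within the range of the null lines or, for Zfp78, above it. Zfp992 was at 12.4, 0 and 0.293 CPM in wild-type lines and at 19.5, 17.2, 3.40 and 2.39 CPM in null lines. Zfp202 was at 4.96, 0 and 0.440 CPM in wild-type lines and at 3.70, 5.30, 6.49 and 3.32 CPM in null lines. Such a call compares the null lines mainly with the pair of alike libraries. None of the 7 was called by DESeq2, whose adjusted p ran from 0.322 to 0.870. Their log2 fold changes were 0.69 to 2.56 in DESeq2, 1.40 to 3.68 without wild-type replicate 2 and 0.57 to 3.88 without wild-type replicate 3, the value of Zfp992 falling from 5.86 to 1.40 in DESeq2. Zfp706, a small single-finger protein gene and among the most abundant members, was called at a log2 fold change of 0.44, with 299 CPM in wild-type replicate 1, 212.7 and 212.5 in wild-type replicates 2 and 3, and 282 to 319 CPM in null lines. Its groups overlapped through wild-type replicate 1 as well.

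**Figure D4:**
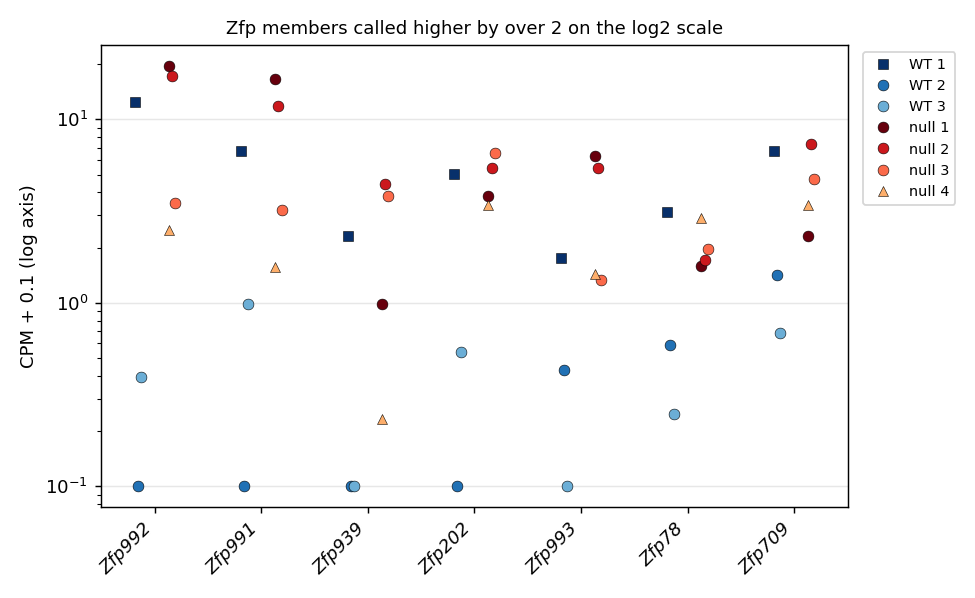
CPM plus 0.1 on a log axis (y) in each library for the 7 members called higher by over 2 on the log2 scale (x). In all 7 genes wild-type replicate 1 (dark square) lies among or above the Smchd1 null values, and wild-type replicates 2 and 3 lie at 1.31 CPM or less.

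The other 6 decreases overlapped between groups. Zfp579, at 3.31, 4.59 and 6.01 CPM in wild-type lines, was at 0.444 and 0.161 CPM in Smchd1 null replicates 1 and 2 but at 3.24 and 5.85 CPM in replicates 3 and 4 (log2 fold change -2.95, limma adjusted p = 0.0405). Its log2 fold change was -0.94 in DESeq2, -1.86 without Smchd1 null replicate 1 and -1.38 without Smchd1 null replicate 2, and the call was lost in each. Zfp184, Zfp219, Zfp768, Zfp91 and Zfp281 had log2 fold changes from -1.61 to -0.47. Zfp91, an atypical ubiquitin ligase, was at 122, 217 and 224 CPM in wild-type lines and at 126 to 148 CPM in null lines. It lies on chromosome 19, and its log2 fold change of -0.62 was close to the median of -0.56 over the other genes there and was -0.21 and -0.19 without wild-type replicate 2 or 3. Zfp281, a regulator of pluripotency, was at 63.9 to 71.7 CPM in wild-type lines and at 43.2 to 48.8 CPM in 3 null lines, with 71.3 CPM in Smchd1 null replicate 4. Its 9 tested neighbours had a median log2 fold change of -0.60, beside -0.47 for Zfp281.

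Position in the genome gave the next view. Chains of at least 3 annotated Zfp genes with gaps of 250 kb or less formed 28 clusters, 10 of them on chromosome 7, and 156 members lay in one. Of these 7 (4.49%) were called higher and 4 (2.56%) lower, beside 5.06% and 6.85% of all genes, with a median log2 fold change of 0.04. Of 133 members outside clusters 5 (3.76%) were higher and 9 (6.77%) lower, with a median of -0.05. Without overlap were 5 higher (3.21%) and 10 lower (6.41%) in clusters, and 7 (5.26%) and 12 (9.02%) outside, beside 6.35% and 6.85% of all genes. Zfp229 in a cluster and Zfp551 outside could not overlap. Only 2 of the higher calls in clusters were without overlap. Among 23 clusters with at least 3 members, 13 had a median above and 10 below 0, so clustered members did not share a direction.

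The largest cluster, on chromosome 13 (67038594 to 67827000), held 18 members from Zfp712 to Zfp273, and 16 of them had a positive log2 fold change (median 0.35, range -0.14 to 1.37). Only Zfp595 was called. Zfp712 and Zfp738 were higher without overlap but not called (limma adjusted p = 0.0596 and 0.0672). Zfp712 was at 2.21, 2.46 and 3.08 CPM in wild-type and at 4.59, 5.94, 4.17 and 4.26 CPM in null lines. In wild-type replicate 1 the median difference from the other libraries was -0.73 log2 units for the cluster and -0.82 for the 439 other tested genes of chromosome 13, and the part of that in the result was not tested. Those 439 genes had a median log2 fold change of 0.12, and 10 neighbours of the cluster 0.11.

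The cluster on chromosome 17 (21383707 to 22456689) held 16 members from Zfp677 to Zfp946, all with a KRAB pattern in its wider form, defined below. Its median log2 fold change was -0.28, with 10 members below 0 and a range from -2.59 to 0.50. Zfp52 was called lower, and Zfp948, Zfp229 and Zfp994 were lower without overlap but not called. For Zfp229 the lack of overlap followed from the filter, which it passed in wild-type lines alone. Zfp948 was at 3.86, 5.08 and 4.84 CPM in wild-type and at 0.148, 3.05, 1.85 and 0.931 CPM in null lines. The low values were not shared by all null lines: the members' median difference from the other libraries was -1.0 log2 units in Smchd1 null replicate 4 and -0.6 in replicate 1, but 0.0 and 0.1 in replicates 2 and 3. Neighbouring Zfp51, Zfp942 and Zfp944 had log2 fold changes between -0.31 and 0.16.

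On chromosome 7 (29768552 to 30169775) the 14 members from Zfp84 to Zfp146 had a median log2 fold change of 0.05, equal to that of 54 neighbours. Zfp260 was the only one called there. Zfp568, which represses a placental form of Igf2, was at 95.7, 146 and 117 CPM in wild-type lines and at 96.7, 112, 89.1 and 45.3 CPM in null lines (limma adjusted p = 0.155).

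The cluster on chromosome 4 (146449030 to 147849126) showed the widest spread between lines. Its 8 members ran from -2.70 for Zfp985 to 5.86 for Zfp992, with a median of 3.21, whereas 28 neighbours had a median of -0.01. Zfp991, Zfp992 and Zfp993 were called higher, none without overlap. Zfp984 and Zfp933 in the same cluster were well expressed, at 40.0 to 101 and 12.8 to 20.4 CPM, with log2 fold changes of -0.24 and -0.21. Zfp985 was at 0, 1.64 and 1.91 CPM in wild-type and at 0, 0.482, 0.154 and 0.798 CPM in null lines, and Zfp979 ranged from 0 to 35.3 CPM within the null group. Of 100-base words in the transcripts of Zfp991 and Zfp992, 73.8% and 28.6% occur in another gene, so their counts are uncertain. The shares were 26.2% for Zfp984 and 17.0% for Zfp979, whose counts are uncertain as well, and Zfp993 had no transcript to assess. Among 287 members with a transcript, 222 shared no such word and 22 shared over 10%.

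**Figure D5:**
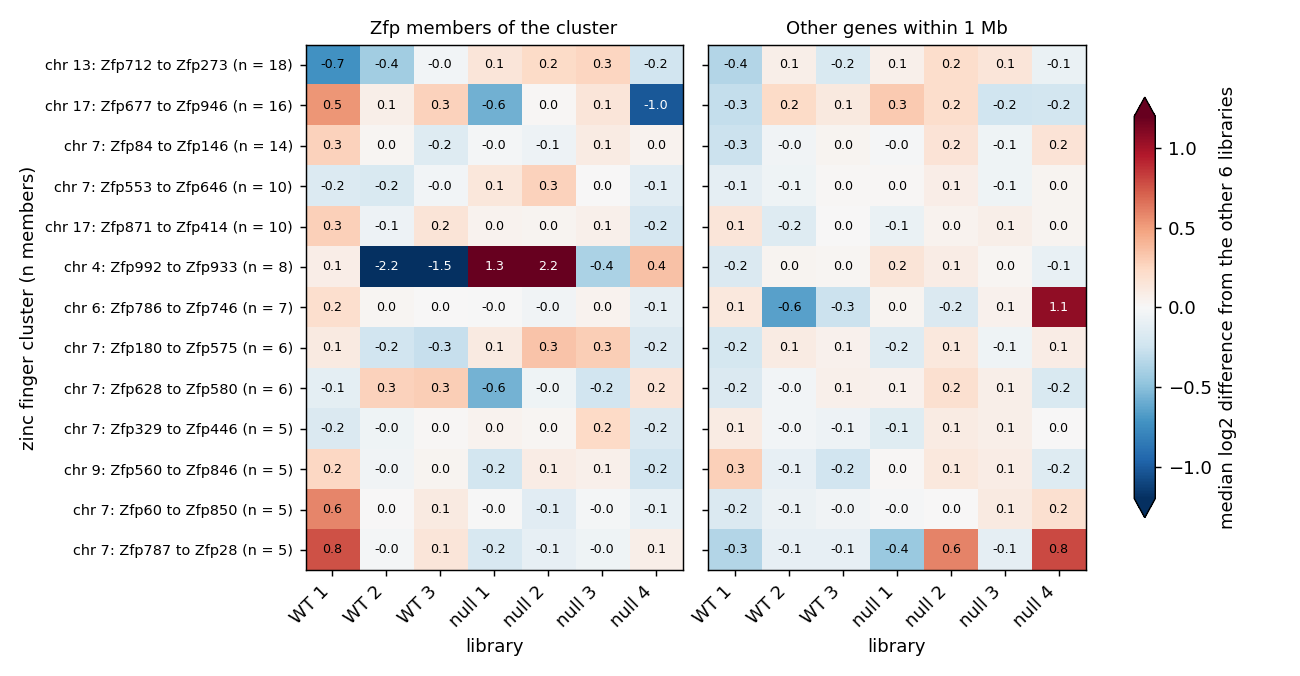
Median log2 difference of each library from the other 6 for the 13 clusters with at least 5 members (rows), over their Zfp members (left) and over other tested genes within 1 Mb (right). The chromosome 4 cluster is low in wild-type replicates 2 and 3 (-2.2 and -1.5) and high in Smchd1 null replicates 1 and 2 (1.3 and 2.2), while its neighbours stay between -0.2 and 0.2; colours saturate at 1.2 on either side.

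Members also differed in their proteins. The longest open reading frame of a GENCODE M21 transcript was translated for 287 members. At least 1 match to the C2H2 spacing was found in 283, with up to 36 fingers. A KRAB box pattern was matched in 98 (82 of them in clusters), with a median of 11 fingers against 9 in the 189 others. Members with the pattern had 6 higher (6.12%) and 3 lower (3.06%) calls, beside 5.06% and 6.85% of all genes, and a median log2 fold change of -0.08, and those without it had 4 higher (2.12%) and 10 lower (5.29%) calls and a median of 0.04. Counts without overlap leaned the other way. They were 4 higher (4.08%) and 12 lower (12.2%) with the pattern, and 8 (4.23%) and 10 (5.29%) without it, beside 6.35% and 6.85% of all genes. The groups of Zfp551 and Zfp229 could not overlap, as given above. A wider pattern, chosen after the first count was seen, matched 143 members, with 6 higher and 4 lower calls and a median of -0.07. The pattern misses diverged boxes.

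The partners of KRAB proteins were examined next. Of a list of 24 KRAB corepressor and heterochromatin genes 22 were tested, and 0 were called higher and 1 (4.55%) lower, beside 5.06% and 6.85% of all genes. Lower without overlap were 4 of the 22 (18.2%) and higher 1 (4.55%), beside 6.85% and 6.35% of all genes. The margin was narrow for Morc2a (150.1 CPM in the lowest wild-type against 149.3 CPM in the highest null line) and for Smarcad1 (77.97 against 76.94 CPM). The list had a median log2 fold change of 0.06, with 13 genes above and 9 below 0. Trim28 was at 709 to 820 CPM in every library. Chd4, the remodelling subunit of the NuRD complex, was at 604 to 685 CPM in wild-type and 460 to 574 CPM in null lines (log2 fold change -0.39 ± 0.10, limma adjusted p = 0.0448, DESeq2 adjusted p = 0.105). Other zinc finger families held few genes each, against the same background of 5.06% higher and 6.85% lower. Zbtb genes had 1 higher and 3 lower of 37, Zscan 1 and 1 of 10, Zkscan 0 and 0 of 9, and Klf 1 and 2 of 12.

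Members with known roles were named whatever their values. Zfp445, which protects imprinted methylation, was at 197, 120 and 118 CPM in wild-type and at 118, 63.0, 143 and 124 CPM in null lines (log2 fold change -0.35, limma adjusted p = 0.368). Zfp809, a silencer of retroviral DNA, was at 12.5 to 18.5 CPM in wild-type and 16.0 to 19.5 CPM in null lines (log2 fold change 0.40, limma adjusted p = 0.112). Zfp451, a SUMO ligase, was lower without overlap, at 61.4 to 73.6 CPM against 33.4 to 53.6 CPM, and just missed the threshold (log2 fold change -0.45, limma adjusted p = 0.0545). Zfp622, which acts in maturation of the large ribosomal subunit, was higher without overlap at 62.9 to 67.7 CPM against 76.3 to 124.5 CPM (log2 fold change 0.26, limma adjusted p = 0.145). The remaining role genes did not pass the test either. Zfp36 (tristetraprolin, which destabilises mRNA), Zfp318 (needed for IgD expression), Zfp207, Zfp143, Zfp148, Zfp217 and Zfp335 had log2 fold changes from -0.29 to 0.18. Their sign changed between fits for some, as given in the closing section. Zfp42 and Zfp57 had no count in any library, Zfp423 had 1 count in each of 2 libraries, and Zfp521 had 4, 3 and 2 counts in Smchd1 null replicates 1 to 3 and 0 elsewhere.

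Per unit of gene length, members spanned a wide range. Mean RPKM, which is CPM divided by gene length in kilobases, ran over the 7 libraries from 0.110 to 88.5 with a median of 4.73. Zfp207, a spindle checkpoint factor, was highest at 88.5 RPKM, ahead of Zfp106 at 75.5 and Zfp706 at 61.9 RPKM. Members took 0.820% to 0.957% of all counts in a library, highest in wild-type replicate 1. That library was also the highest for 104 members, or 36.0%, beside 25.6% of all genes tested, and Smchd1 null replicate 4 was the highest for 40 members (13.8%, beside 23.8%).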

How the data were processed

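RNA-seq was performed on 7 samples of lymphoma cell lines. The authors aligned reads to mm10 with Subread and summarised them by gene with featureCounts, and the deposited values are raw counts, 1 table per library, with gene length; base calling used CASAVA 1.8.2 per the labels. Treatment of multi-mapping reads and the use of strand are not given in the sources used here, so counts of near-identical or overlapping genes are uncertain. Symbols and positions came from RefSeq (GRCm38.p6, the same build as mm10), which matched 25275 of 27179 genes. CPM was the count over the library total. Total counts ranged from 3626853 to 7519549.

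The test kept genes that reached 0.5 CPM in 3 libraries or more, and used limma 3.58.1 and edgeR 4.0.16 in R 4.3.3: TMM factors, voomWithQualityWeights, lmFit and eBayes, with group as the only term and Benjamini-Hochberg adjustment over all 12303 genes. This follows the methods of the study rather than the quasi-likelihood test, which was an alternative. Replicates were not averaged before the fit. The code was tested on simulated data. Differences in a library are log2 CPM against the median of the other 6. DESeq2 was version 1.42.0. Alternatives also covered voom alone, block weights, removal of wild-type replicate 1 and Smchd1 null replicate 4, relative log expression, other filters, batch and replicate terms, omission of each library, wild-type replicates 2 and 3 summed, cluster gaps of 100 and 500 kb, and clusters built with related symbols.

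Named genes were up to 12 increases and 12 decreases among called members without overlap (4 and 7 existed), members of the 3 largest clusters, and a list with known roles. Zfp704, Zfp979, Zfp982, Zfp985 and the overlapping calls were named after their values were seen. Members and lists were chosen with earlier results of these data known. Protein features came from translated GENCODE M21 transcripts: C2H2 matches have 2 to 4 residues between cysteines, 12 in the loop and 3 to 5 between histidines.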

Additional observations from a re-analysis of the deposited data

Results flagged for a closer look

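Of 40 named or called members screened in the 4 Smchd1 null lines, 3 had 1 library far from the other 3 on the log2 CPM scale. Chance gives about 1 in 20, or 2, for members chosen without regard to their values. That share does not apply to members called in the fit or named after their values were seen, Zfp704 and Zfp982 among them. The number 2 is therefore only a rough guide for these 40. Zfp704 was at 224.1 CPM in Smchd1 null replicate 4 and at 0.463 to 1.19 CPM in the other 3, with 1.38, 17.1 and 17.7 CPM in wild-type lines. Zfp622 was at 124.5 CPM in Smchd1 null replicate 4 and at 76.3 to 77.1 CPM in the other 3. Zfp982 had 0 CPM in Smchd1 null replicate 1 and 1.55 to 2.26 CPM in the other 3, with no count in wild-type lines.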

How the results depend on the processing

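The number of calls depended on the fit, and the direction of called members did not reverse under any alternative. Members called higher, 12 with sample weights, numbered 6 with at least 10 counts in every library, 2 with block weights, 1 with sample removal, and 0 with DESeq2, the quasi-likelihood test, voom alone, or wild-type replicates 2 and 3 summed. Members called lower, 13 with sample weights, numbered 5 with block weights, 6 with sample removal, 3 with DESeq2, and 0 with the quasi-likelihood test, voom alone, or the summed pair. Omitting 1 library gave 0 to 12 higher and 0 to 16 lower, with 0 in both directions without wild-type replicate 2 or 3. In clusters, 11 calls became 7 with 10 counts in every library, 1 with DESeq2, and 0 with block weights, sample removal, the quasi-likelihood test, voom alone or the summed pair; outside clusters, 14 became 2 with DESeq2, 7 with block weights, 7 with sample removal, and 0 with the last 3. Omission gave 0 to 11 and 0 to 16. The median log2 fold change of members, 0.0032, was -0.063 with DESeq2, -0.065 with the quasi-likelihood test and -0.087 with the summed pair, and -0.093 to 0.025 with 1 library omitted. The wider KRAB pattern gave 10 calls in place of 9. RLE factors, no filter and batch as a term kept all counts within 1.5 times. Batch 1 held only wild-type replicate 1, so the batch term takes up that library and nearly repeats the fit without it. It cannot separate batch from that line. Smchd1 was lower in every fit.

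With the replicate number as a block, 0 members were called higher and 2 lower, 0 in clusters and 2 outside, namely Zfp551 and Zfp704. In deviations from their group means, same-numbered libraries correlated at -0.15, 0.23 and -0.18, beside -0.24 to 0.20 for the other pairs. Deviations within a group depend on each other, so these values cannot decide whether the numbers pair the samples.

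Of the uncalled members named in the text, these changed sign. With DESeq2, the quasi-likelihood test, voom alone and the summed pair, Zfp36 had 0.13, 0.13, 0.27 and 0.40, and Zfp148 -0.031, -0.032, -0.013 and -0.16. Zfp148 was -0.025 with the replicate block. Zfp143 was -0.013, -0.018 and -0.014 with DESeq2, the quasi-likelihood test and the summed pair. Zfp217 was 0.021 and 0.24, and Zfp318 0.10 and 0.51, with voom alone and the summed pair. Zfp207 was -0.0070 with the summed pair, and Zfp704, -3.91 with sample weights, was 2.16 with the quasi-likelihood test and 2.19 with DESeq2, which gave no adjusted p. With 1 library omitted, the ranges were -0.66 to 0.14 for Zfp445, -0.38 to 0.54 for Zfp36, -0.050 to 0.28 for Zfp207, -0.057 to 0.19 for Zfp143, -0.20 to 0.094 for Zfp148, -0.46 to 0.32 for Zfp217, -0.47 to 0.73 for Zfp318 and -0.00049 to 0.15 for Zfp335. The cause was not tested. At these depths, members under 0.827 CPM cannot be told from 0 in the shallowest library.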
